A study of Mus musculus with 2 samples.

Results

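The complement genes examined here were 9 members of the cascade: the 3 chains of C1q (C1qa, C1qb and C1qc), C4b, C3, Cfb, C7, and the regulators Serping1 and Cd55. They were found by gene symbol, 9 of the 32287 features in the count matrices, and each symbol matched 1 gene ID. A wider list of 51 complement genes, which contains the 9, gave the rest of the pathway. The question was which cells of the resting thoracic aorta carried each transcript, in what amount, and how evenly within fibroblasts, mesothelial cells and macrophages.

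Complement is a cascade of plasma and tissue proteins that tags surfaces for uptake and can perforate membranes. The classical pathway starts when C1q, built from 3 kinds of chain, binds antibody or altered surfaces and its partner proteases cleave C4 and C2. The alternative pathway is driven by C3 and factor B (Cfb), and all routes meet at C3, whose cleavage leads to the membrane attack complex that C7 helps to build. Serping1 encodes the C1 inhibitor, and Cd55 encodes decay-accelerating factor, a membrane protein that breaks up C3 convertases. The liver is the main source of most plasma components, whereas C1q is known as a product of tissue macrophages.

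Thoracic aortas were taken at 12 weeks of age from 2 mice labelled wild type, on a C57BL/6J background. There was 1 library for each, and the mice form 1 group (n = 2). The animals were GFPiSMC mice, which carry the tamoxifen-inducible Cre Myh11-CreERT2 and the mT/mG membrane reporter, and at 3 weeks of age they received 1 mg tamoxifen a day intraperitoneally on 5 days. The Myh11 promoter restricts Cre to smooth muscle cells (SMCs), the mice were male (from the methods), and viable singlets were sorted without selection for GFP after digestion in the cold. No group was left untreated and none was a mutant, so every comparison is between cell types within the same aortas, at a single age.

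The matrices hold raw counts of unique molecular identifiers (UMIs), each of which marks 1 captured RNA molecule. After filtering and removal of doublets, 6543 and 4609 cells remained in aortas 1 and 2, with medians of 5671 and 5392 UMIs, and 18 of the deposited barcodes occurred in both libraries. Clusters were built without any complement gene and named from other markers, and 12 cell types, each with 10 cells or more per aorta, were tested. The largest were SMCs (3834 cells), fibroblasts (2774), endothelial cells (1389), macrophages (1266), T cells (720) and mesothelial cells (432). Macrophages were defined by Csf1r and Mrc1, at 1111 and 1120.4 CPM (UMIs of the gene per 1000000 UMIs) and at 1923 and 1968 CPM in aortas 1 and 2, and not by C1q. No cluster passed as dendritic, and 141 cells stayed unnamed. Levels below are CPM of the summed UMIs of a cell type in 1 aorta. They are not scaled by transcript length and were therefore compared between cells for 1 gene, never between genes. Single UMIs were worth between 0.0601 CPM in SMCs and 12.8 CPM in neutrophils, so low levels in rare types were poorly resolved.

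All 9 genes passed the filter on low counts, among 11971 genes tested, and all 9 differed among the 12 cell types in the F test of edgeR's quasi-likelihood model (adjusted p from 3.50e-26 for C1qc to 8.82e-19 for C4b). With types this unlike, 92.4% of all genes tested differed, so the count of members carries little by itself and the levels are what is described. Between pairs of types, a gene was called at an adjusted p under 0.05 and a log2 fold change over 1 in size. Over all 66 pairs of types, 23.6% of tests were calls. When the 12 types were ordered by mean CPM for each gene, 18 of the 99 gaps between neighbours were calls, and the lower parts of most orders were not resolved.

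**Figure D1:**
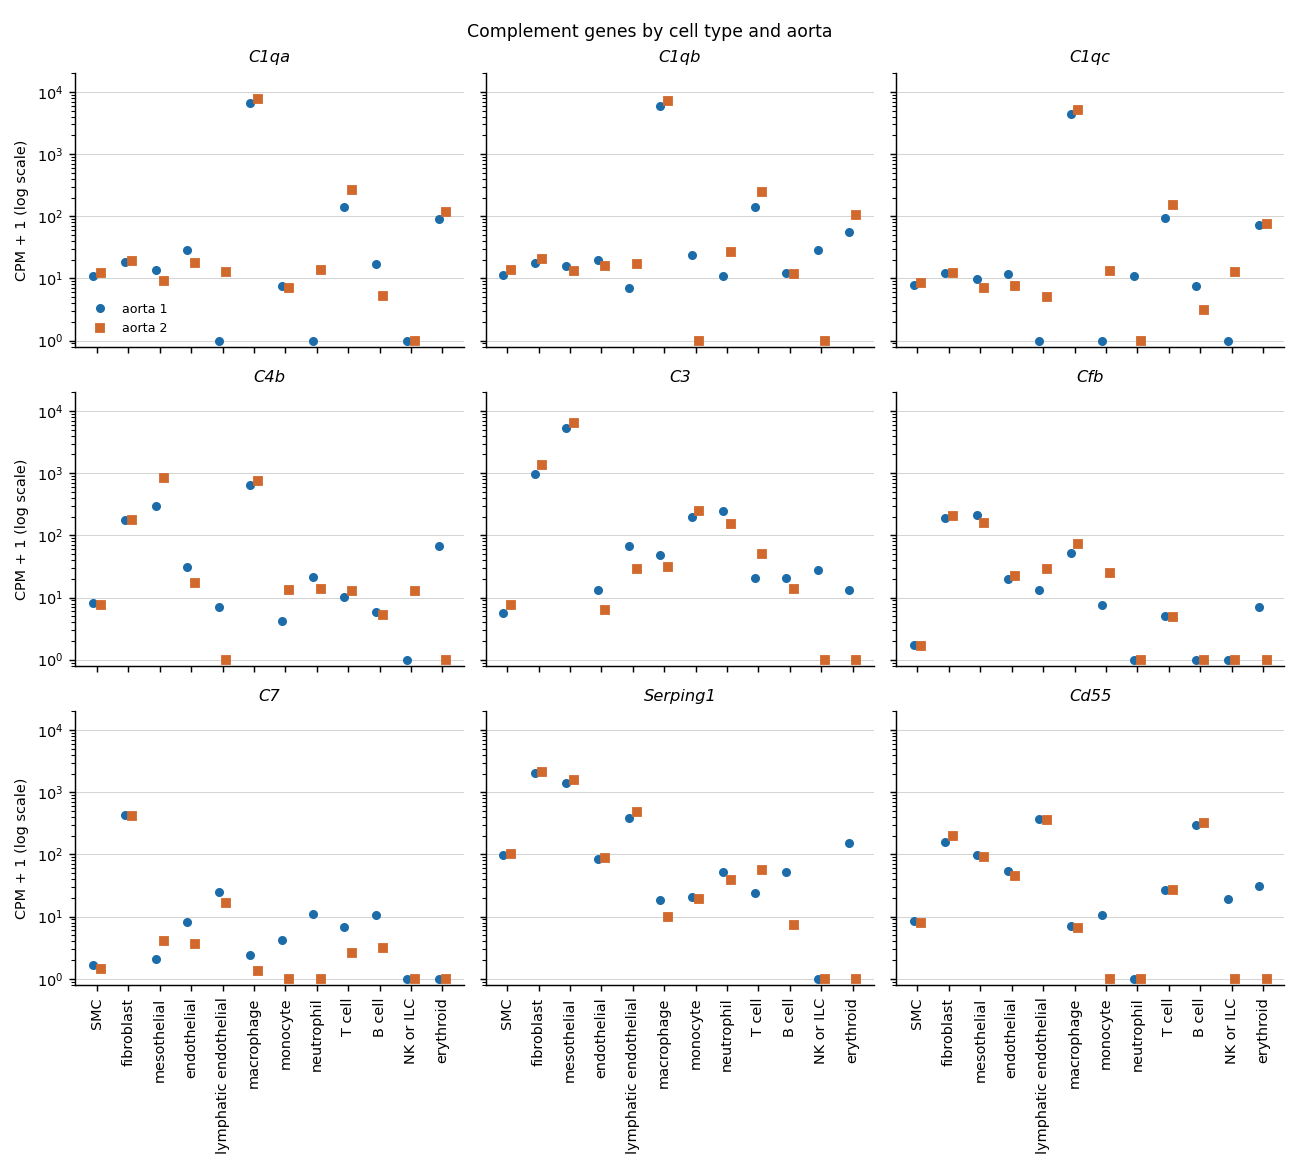
Level of each of the 9 complement genes in each cell type, as CPM + 1 on a log axis, with a circle for aorta 1 and a square for aorta 2. The C1q chains stand far above all other types in macrophages, C3 is highest in mesothelial cells, and C7 and Serping1 are highest in fibroblasts.

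The 3 C1q genes lie side by side on chromosome 4 of the mouse genome (GRCm38), all on the minus strand. C1qa spans 136895917 to 136898803, C1qc 136889804 to 136893065 and C1qb 136880129 to 136886187. The gaps are 2851 and 3616 bases, with 0 protein-coding genes between them. The promoter stretches of C1qb and C1qc are printed because the chains were measured together in macrophages and the cluster is compact. Each is 300 bases of RefSeq sequence (GRCm38.p6) around the gene's start, read 5′ to 3′ on the gene's strand, with the hexamer GAGGAA, a core of the PU.1 motif, in capitals on either strand.
C1qb promoter, chr4:136886151-136886450, minus strand: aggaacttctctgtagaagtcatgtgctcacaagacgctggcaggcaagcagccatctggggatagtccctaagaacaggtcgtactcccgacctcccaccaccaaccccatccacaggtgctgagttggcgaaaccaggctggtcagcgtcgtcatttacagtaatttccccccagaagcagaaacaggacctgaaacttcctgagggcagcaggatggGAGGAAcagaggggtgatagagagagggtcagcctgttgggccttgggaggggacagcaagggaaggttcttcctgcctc
C1qc promoter, chr4:136892865-136893164, minus strand: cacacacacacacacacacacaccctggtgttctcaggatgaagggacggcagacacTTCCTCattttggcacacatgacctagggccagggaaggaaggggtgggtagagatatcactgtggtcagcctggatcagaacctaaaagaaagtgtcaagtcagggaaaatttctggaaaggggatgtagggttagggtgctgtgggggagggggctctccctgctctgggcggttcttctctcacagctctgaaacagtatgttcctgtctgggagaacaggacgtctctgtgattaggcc
The C1qb stretch holds GAGGAA at base 221, and the C1qc stretch holds its reverse complement TTCCTC at base 58. The hexamer contains the shorter ETS core GGAA and occurs on either strand in 28.3% of 32851 promoters of the same length, so the matches describe the sequence and are common.

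C1qa, which encodes the A chain, was measured at 6708 and 7641 CPM in the macrophages of aortas 1 and 2 (7175 ± 660 [SD], n = 2). C1qb reached 5915 and 7023 CPM there, and C1qc 4449 and 5045 CPM. In both aortas macrophages were highest for all 3 chains, and no other named type came within an order of magnitude. T cells were next by mean CPM, with C1qa at 141 and 260 CPM, and macrophages exceeded them by 5.26 ± 0.27 (log2 ± SE) for C1qa (adjusted p = 3.71e-16), 5.17 ± 0.26 for C1qb (1.84e-16) and 5.37 ± 0.23 for C1qc (4.44e-18). Erythroid cells, with 24 and 14 cells, held C1qa at 90.4 and 114 CPM from 15 and 11 UMIs. They were below T cells in CPM, but under the model's scaling the difference of T cells from erythroid cells was -0.88 (log2, adjusted p = 0.249) for C1qa, -0.49 (0.571) for C1qb and -1.12 (0.144) for C1qc, so the order of these types was not resolved. SMCs held 9.9 and 11 CPM of C1qa, fibroblasts 17.2 and 18.1, and monocytes 6.46 and 6.04, the last from 2 and 1 UMIs. Monocytes are the blood cells closest to macrophages, and C1qa was lower in them than in macrophages (adjusted p = 5.24e-16), with no fold given for so few UMIs.

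Cell by cell, C1q was close to universal in macrophages. After each cell was thinned to 1000 UMIs, C1qa was detected in 99.1% and 98.3% of macrophages, C1qb in 98.6% and 99.4%, and C1qc in 95.7% and 97.1%. By comparison, Csf1r was detected in 66.7% and 63.9% of the same cells. All 3 chains were found together in 93.7% and 95.8% of macrophages, and none of them in 0% and 0.42%. The exact 95% binomial intervals for C1qa were 98.2 to 99.6% and 96.7 to 99.3%. In SMCs, which serve as a background, C1qa was detected in 1.30% and 1.06% of cells. Macrophages carried 95.8% of all C1qa UMIs, 94.2% of C1qb and 96.1% of C1qc (means of the aortas), although they made up 1266 of the 11152 cells.

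Outside macrophages the C1q signal was low. In SMCs the C1q chains stood at 0.14 to 0.18% of the macrophage level, within the range of 7 other macrophage markers there (0.0907 to 0.624% in aorta 1 and 0.0595 to 0.549% in aorta 2). In T cells the chains stood at 2.06 to 3.47%, also within the range of those markers (1.35 to 5.01% and 2.12 to 6.67%). Most of the T cell signal sat in 1 cluster of 75 cells led by the cell division genes Hist1h2ap, Top2a and Mki67. It held 259 of 320 and 305 of 333 C1qa UMIs of the T cells, at 637 and 760 CPM. The main cluster of mature T cells, with 452 cells, held 33.7 and 6.01 CPM. C1q UMIs per Csf1r UMI were 15.4 and 17.6 in macrophages and 16.9 and 21.0 in T cells, against 0.05 and 0.04 in monocytes. Whether free RNA or adhering cells contributed to the T cell values was not tested.

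Unnamed cells held C1q as well. A cluster of 128 cells led by Lyz1, Ccr2, Plbd1, Ear2 and Cd209a, which mixed macrophage, monocyte and dendritic markers, had C1qb at 1171 and 1012 CPM and C1qa at 708 and 573 CPM. The mix of chains differed there. C1qb made up 51.1% and 52.8% of its C1q UMIs, compared with 34.7% and 35.6% in macrophages and 37.5% and 37.1% in T cells. A further 13 unnamed cells, all from aorta 1 and led by Ccl4, Xist, Ccl3, Cx3cr1 and P2ry12, carried C1qa at 8304 CPM. Xist is transcribed in female cells, which goes against the sex given for the mice, and these 13 cells entered no test.

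C4b encodes the mouse C4, the substrate of C1s in the classical pathway, and lies on chromosome 17 (34728380 to 34743882, minus strand) in the MHC class III region. Its near-identical copy C4a lies 65209 bases away and was counted at no more than 2.0 CPM in any cell type, so reads that fit both copies make the C4b level uncertain. Macrophages held 645 and 760 CPM, mesothelial cells 297 and 843, and fibroblasts 174.2 and 174.4. Macrophages and mesothelial cells overlapped, and their difference of 0.54 (log2) did not pass the test (adjusted p = 0.0596). Fibroblasts agreed closely between the aortas, whereas the mesothelial values lay far apart. Macrophages carried 52.6% of C4b UMIs, fibroblasts 29.3% and mesothelial cells 14.3%. C4b was detected in 38.6% and 43.9% of thinned macrophages, compared with 0.43% and 0.80% of T cells.

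C3 is the central component, on chromosome 17 (57203970 to 57228136, minus strand). Its promoter stretch is printed because C3 was called higher in mesothelial cells than in fibroblasts and higher in fibroblasts than in SMCs, and capitals mark a match to TTGCNNAA, a C/EBP motif.
C3 promoter, chr17:57228087-57228386, minus strand: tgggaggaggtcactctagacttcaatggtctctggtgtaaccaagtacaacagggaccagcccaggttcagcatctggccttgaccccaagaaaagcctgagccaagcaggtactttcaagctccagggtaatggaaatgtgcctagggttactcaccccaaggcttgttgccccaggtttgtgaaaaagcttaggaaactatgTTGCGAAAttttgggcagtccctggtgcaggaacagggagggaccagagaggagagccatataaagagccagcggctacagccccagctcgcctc
The match starts at base 206. This motif, counted on both strands, was present in 10.8% of promoters, and neither the ISRE core nor the NF-kB motif was found in the C3 stretch. C3 stood at 5421 and 6312 CPM in mesothelial cells, the flat epithelium on the outer surface, and at 978 and 1365 CPM in fibroblasts. Monocytes held 194 and 242 CPM, neutrophils 242 and 154, macrophages 47.3 and 29.4, and SMCs 4.63 and 6.64. Both aortas gave the same order of the first pair, mesothelial cells above fibroblasts, with no overlap. Fibroblasts exceeded monocytes by 2.46 (log2, adjusted p = 1.19e-07). Monocytes and neutrophils did not differ beyond their spread (0.15, adjusted p = 0.966), and neutrophils exceeded lymphatic endothelial cells by 2.55 (adjusted p = 0.00291).

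Detection of C3 followed the level. At 1000 UMIs, 93.4% and 95.6% of mesothelial cells had a C3 UMI, compared with 36.2% and 44.0% of fibroblasts, 15.7% and 23.3% of monocytes and 0.67% and 0.99% of SMCs. The intervals for monocytes, with 51 and 30 cells, were wide (7.02 to 28.6% and 9.93 to 42.3%). Because fibroblasts are more numerous, they still carried 54.0% of C3 UMIs and mesothelial cells 43.7%. In monocytes C3 stood at 19.8% and 17.7% of the fibroblast level and in neutrophils at 24.8% and 11.3%, above every one of the fibroblast markers measured in those types. In SMCs it stood at 0.47% and 0.49%, inside the range of those markers (0.231 to 7.59% and 0.273 to 7.69%).

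Cfb encodes factor B, the protease zymogen of the alternative pathway, and lies on chromosome 17 (34856374 to 34862518, minus strand), 112491 bases from C4b. Fibroblasts held 186 and 207 CPM and mesothelial cells 212 and 160, which overlapped (adjusted p = 0.366). Macrophages followed with 50.1 and 72.0 CPM, lower than mesothelial cells by 1.46 on the log2 scale (adjusted p = 9.86e-09). Lymphatic endothelial cells held 12.0 and 27.6 CPM from 2 and 7 UMIs, where 3 UMIs in aorta 1 would be 18.0 CPM. Endothelial cells held 18.5 and 20.9 CPM. SMCs were near the limit at 0.722 and 0.690 CPM, and no Cfb UMI was counted in B cells, where 3 UMIs would have given 4.88 and 6.42 CPM. Fibroblasts carried 74.6% of Cfb UMIs, mesothelial cells 11.6% and macrophages 10.3%. Macrophage Cfb was 27.0% and 34.9% of the fibroblast level, above every fibroblast marker in macrophages.

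C7, a component of the membrane attack complex, lies on chromosome 15 (4988762 to 5063740, minus strand). Its stretch is printed because C7 was the member most restricted to 1 type, and capitals mark a match to the GAS motif TTCNNNGAA, known from STAT-bound promoters.
C7 promoter, chr15:5063724-5064023, minus strand: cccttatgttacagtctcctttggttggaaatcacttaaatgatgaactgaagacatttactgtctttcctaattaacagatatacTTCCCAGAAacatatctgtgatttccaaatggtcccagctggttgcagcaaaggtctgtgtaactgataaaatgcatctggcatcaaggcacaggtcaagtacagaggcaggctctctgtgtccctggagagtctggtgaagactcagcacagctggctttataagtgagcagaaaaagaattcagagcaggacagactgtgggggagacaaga
The match starts at base 87, its first 4 letters are also an ETS core on the other strand, and 8.30% of promoters hold the motif. Fibroblasts held 430 and 414 CPM (422 ± 11.3 [SD], n = 2). Lymphatic endothelial cells came next with 24.0 and 15.8 CPM from 4 UMIs in each aorta, which fibroblasts exceeded by 4.86 (log2, adjusted p = 5.73e-12). These values were 5.59% and 3.81% of the fibroblast level, inside the range of the fibroblast markers there (0 to 11.02% and 0.734 to 12.7%). Endothelial cells held 7.28 and 2.66 CPM, mesothelial cells 1.11 and 2.99 from 2 and 3 UMIs, and SMCs 0.662 and 0.431. Fibroblasts carried 98.9% of C7 UMIs. Detection in thinned fibroblasts was 25.9% and 25.3%, and 0.127% and 0% in macrophages. In SMCs the C7 level was 0.15% and 0.10% of that in fibroblasts, below every fibroblast marker measured there.

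Serping1, on chromosome 2 (84765387 to 84775444, minus strand), encodes the serpin that inactivates C1r and C1s. Fibroblasts held 2051 and 2099 CPM, mesothelial cells 1391 and 1590, and lymphatic endothelial cells 390 and 477. SMCs and endothelial cells were lower, at 96.4 and 101 CPM and at 83.7 and 86.1 CPM, and macrophages held 17.7 and 9.0. Fibroblasts were above mesothelial cells in both aortas without overlap, but the difference did not pass the test (adjusted p = 0.0534). Mesothelial exceeded lymphatic endothelial cells by 2.04 (log2, adjusted p = 3.12e-06) and lymphatic endothelial cells exceeded SMCs by 1.71 (adjusted p = 5.72e-05). SMCs and endothelial cells differed by 0.36 (adjusted p = 0.282). Detection at 1000 UMIs was 75.8% and 78.3% in fibroblasts, 75.9% and 74.7% in mesothelial cells and 8.36% and 10.7% in SMCs, compared with 1.27% and 0.42% in macrophages. The SMC level was 4.70% and 4.80% of that in fibroblasts, inside the wide range of the fibroblast markers in SMCs. Of the other members in SMCs, C3, Cfb and C7 stood at 0.10 to 0.49% of their fibroblast level, and C4b and Cd55 at 3.51 to 4.85%. The part of free RNA in SMC Serping1 was not tested. In lymphatic endothelial cells Serping1 was at 19.0% and 22.7% of the fibroblast level, above every fibroblast marker there.

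Cd55, on chromosome 1 (130439027 to 130462744, minus strand), had a pattern of its own. It overlaps the antisense gene Gm16083, and strand use in the counting was not given in the sources used here, so reads of the 2 genes may not be separable. Lymphatic endothelial cells held 366 and 355 CPM and B cells 301 and 317. Fibroblasts held 155 and 199, mesothelial cells 97.8 and 88.8, blood endothelial cells 54.0 and 43.9, and T cells 25.5 and 25.8. SMCs were at 7.52 and 6.98 CPM, macrophages at 6.11 and 5.54, and neutrophils at 0 in both aortas, where 3 UMIs would be 30.3 and 38.5 CPM. Lymphatic endothelial and B cells did not differ by the test (adjusted p = 0.133), and the model's scaling placed B cells higher by 0.39 on the log2 scale, against the order in CPM. B cells exceeded fibroblasts by 1.02 (adjusted p = 1.04e-06), fibroblasts exceeded mesothelial cells by 1.04 (adjusted p = 1.32e-06), and mesothelial exceeded endothelial cells by 0.90, which was under the limit for a call (adjusted p = 1.37e-04).

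Within the lymphocytes, B cells exceeded T cells in Cd55 by 3.78 ± 0.20 (log2, adjusted p = 9.72e-15). Among endothelial cells, the lymphatic type was higher than the blood vessel type by 2.56 ± 0.21 for Cd55 (adjusted p = 1.25e-10) and by 2.07 ± 0.32 for Serping1 (adjusted p = 1.73e-05). The lymphatic type rests on 47 and 76 cells. Cd55 was detected in 31.9% and 25% of thinned lymphatic endothelial cells, 28.2% and 30.3% of B cells and 9.11% and 12.8% of fibroblasts, compared with 0.63% and 0.21% of macrophages. The intervals for lymphatic endothelial cells were 19.1 to 47.1% and 15.8 to 36.3%. Fibroblasts nonetheless carried 68.7% of Cd55 UMIs, B cells 7.68%, mesothelial cells 5.97%, endothelial cells 5.96%, SMCs 4.70% and lymphatic endothelial cells 3.60%.

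**Figure D2:**
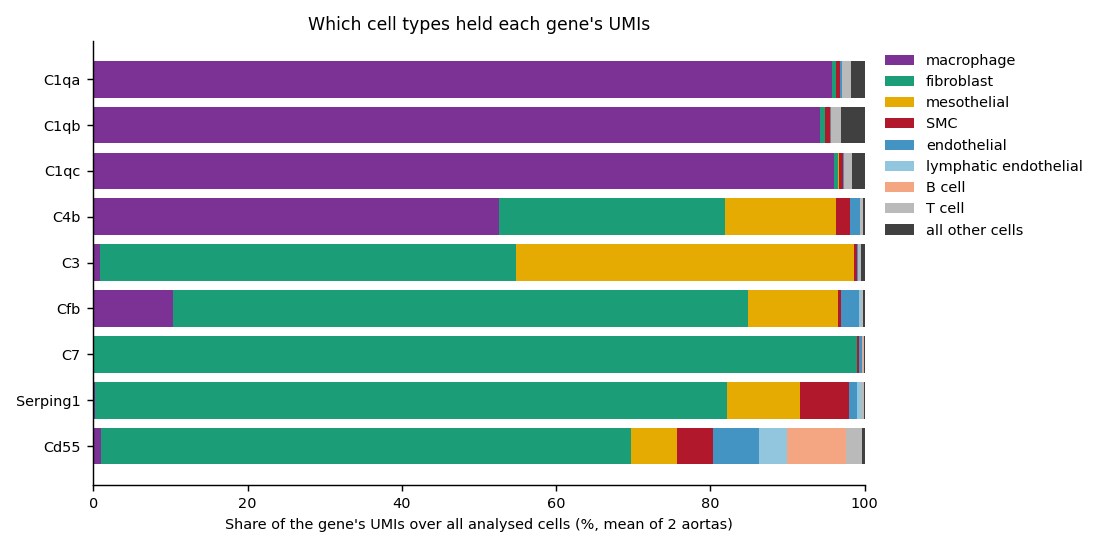
Share of each gene's UMIs, in percent, that each cell type contributed, as stacked bars of the mean of both aortas. Macrophages supplied 95.8% of C1qa UMIs and fibroblasts 98.9% of C7 UMIs, while C3 was divided between fibroblasts and mesothelial cells at 54.0% and 43.7%.

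Adventitial fibroblasts were compared with the SMCs of the media. Of the 9 members, 6 were higher in fibroblasts and none lower, while 15.7% of all genes tested were called higher and 8.72% lower, with a median log2 fold change of 4.54 over the members and 0.11 over all genes. The differences were 9.39 ± 0.23 for C7 (adjusted p = 1.97e-22), 7.98 ± 0.23 for Cfb (5.58e-21), 7.67 ± 0.34 for C3 (3.67e-18), 4.60 ± 0.30 for C4b (3.21e-14), 4.54 ± 0.15 for Cd55 (2.21e-20) and 4.35 ± 0.28 for Serping1 (5.30e-14). The C1q chains lay between 0.62 and 0.71 and were not calls. They became calls at 1.14 to 1.45 with doublets kept, and their sign turned to between -0.56 and -0.49 once fibroblast subsets with the genes of other types were left out. Over the wider list, 29 of the 51 genes were tested, of which 11 were higher and 3 lower. C1ra (4.48) and C1s1 (5.01), the proteases that accompany C1q, and C2 (6.60), the partner of C4b in the classical convertase, were higher in fibroblasts, as was the lectin Colec11 (3.09). Cd59a (-2.50), a membrane inhibitor of the attack complex, Clu (-2.48), a fluid-phase one, and the anaphylatoxin receptor C5ar2 (-1.58) were lower, hence higher in SMCs. C5ar2 passed only narrowly (SE 0.65, adjusted p = 0.0418), compared with SE 0.12 and 1.20e-16 for Cd59a.

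Mesothelial cells were compared with fibroblasts. C3 was higher by 2.20 ± 0.25 (adjusted p = 1.58e-08) and C4b by 1.54 ± 0.24 (4.94e-06), Cd55 was lower by 1.04 ± 0.15, and C7 was lower (2.28e-18), with the mesothelial level resting on 2 and 3 UMIs. Mesothelial C4b was 170% of the fibroblast level in aorta 1, less than the limit for a call in size, and 483% in aorta 2. The size of its difference is thus poorly known. In all, 2 members were called in each direction, where 10% of all genes were called higher and 12.8% lower. Serping1 and Cfb were not calls. On the wider list 4 genes were higher and 3 lower. C2 was higher by 2.80 (589 and 561 CPM in mesothelial cells and 79.4 and 71.0 in fibroblasts) and Clu by 3.08, and Colec11 was lower (-1.48). C1ra and C1s1 were not calls, at 399 and 413 CPM and 477 and 489 CPM in mesothelial cells. With doublets kept, C1qa (1.16) and C1qb (1.19) also became calls above fibroblasts.

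Macrophages were then compared with fibroblasts, and all 9 members were calls, 4 higher and 5 lower (17.3% and 22.0% of all genes). C1qa was higher by 8.74 ± 0.31 (adjusted p = 2.90e-20), C1qb by 8.55 ± 0.31 (1.29e-20), C1qc by 8.77 ± 0.27 (5.49e-22) and C4b by 2.08 ± 0.24 (5.98e-09). Lower were Cfb (-1.64 ± 0.14, 8.51e-11), Cd55 (-4.82 ± 0.20, 8.29e-19), C3 (-4.83 ± 0.30, 4.33e-15), Serping1 (-7.13 ± 0.34, 3.22e-17) and C7 (4.23e-21), the last with 7 and 1 UMIs in macrophages. Of the wider list, 14 genes were higher and 12 lower of 29 tested. Higher were the ficolin Fcna (8.95), properdin Cfp (6.88), the receptors C3ar1 (8.47), C5ar1 (8.40), Vsig4 (9.15) and Itgam (8.98). C1ra (-4.47) and C1s1 (-6.97), whose products form the C1 complex with C1q, and C2 (-2.80), which C1s cleaves, were lower in macrophages.

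Endothelial cells were compared with SMCs. Higher were Cfb by 4.56 ± 0.35 (adjusted p = 8.49e-12), C7 by 2.98 ± 0.52 (1.80e-05), Cd55 by 2.61 ± 0.19 (5.35e-13) and C4b by 1.63 ± 0.39 (8.31e-04), which makes 4 members higher and none lower, against 16.1% and 12.5% of all genes. Relative to the level in fibroblasts, endothelial Cfb (9.98% and 10.1%) and C7 (1.70% and 0.64%) lay inside the range of the 7 fibroblast markers in endothelial cells (0.782 to 13.3% and 0.537 to 11.5%) in both aortas. C4b was above that range in aorta 1 (17.1%) and inside it in aorta 2 (9.41%), and Cd55 was above it in both (34.8% and 22.1%). The part of free RNA in these differences was not tested. C3, Serping1 and the C1q chains were not calls. With doublets kept the count was 7, against 15.1% of all genes called higher under that setting, since the C1q chains were added at 1.20 to 1.79, and with cells of 5000 to 25000 UMIs C7 fell to 0.73 and was no call. Endothelial cells also had the highest mean of Clu, at 3141 and 2766 CPM. Clu (1.90), C1ra (2.33), Colec11 (2.51), Cd46 (1.53) and Cr1l (1.14) were higher than in SMCs and C1s1 (-1.25) was lower, in all 11 higher and 1 lower on the list.

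**Figure D3:**
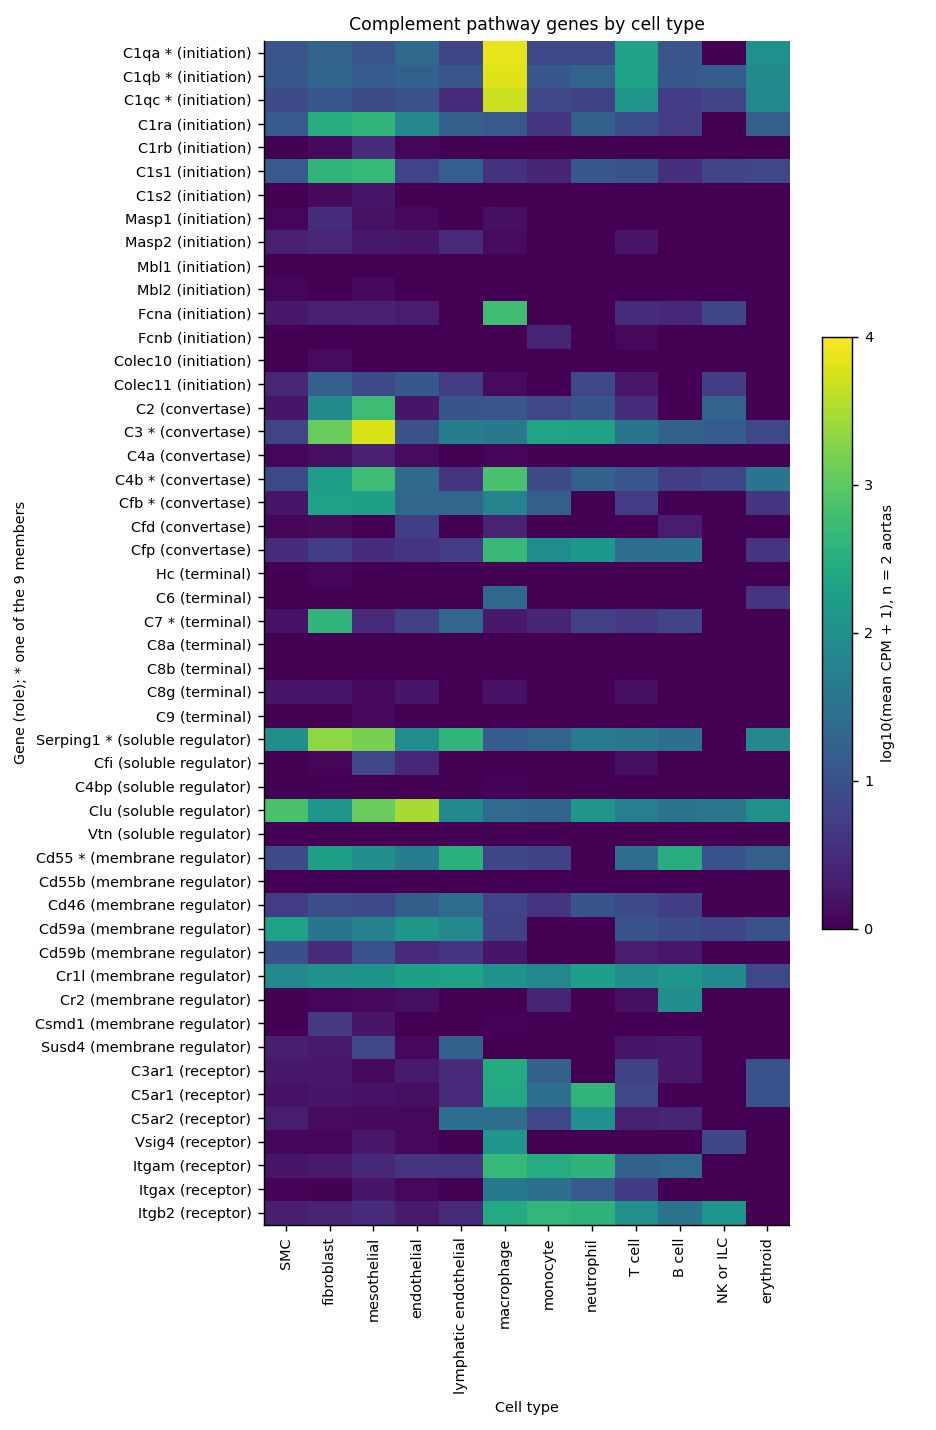
Level of the complement genes by cell type as a heat map of log10(mean CPM + 1) over both aortas, ordered by role, with an asterisk at each of the 9 genes. C1q, Fcna and Cfp are bright in macrophages, C1ra, C1s1, C2 and C3 in mesothelial cells and fibroblasts, and Clu in endothelial cells.

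Of the terminal pathway genes other than C7, C6 was seen in macrophages at 14.3 and 29.4 CPM, and the others were scarcely detected. Hc, the gene of C5, stood at 0.195 and 0.145 CPM in fibroblasts, its highest type by mean. C8g was highest by mean in endothelial cells, at 0.993 and 0.444 CPM, and C8a and C8b each had 1 UMI in SMCs. C9 was counted at 0.555 and 0 CPM in mesothelial cells, from 1 UMI. Of the initiation genes, Mbl1, which encodes a mannose-binding lectin, had no UMI in SMCs, fibroblasts, mesothelial or endothelial cells. The receptor C5ar1 was highest in neutrophils, at 454 and 385 CPM. Of the membrane regulators, Cr2 was highest in B cells, at 111 and 77.0 CPM, and Cd59a was highest in SMCs at 195 and 185 CPM.

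Fibroblasts were divided again, without complement genes, into 10 subsets. Subset 5 (204 cells) carried SMC genes, subset 8 (32 cells) Cd74 and Pf4 of macrophages, and subset 9 (9 cells) mesothelial genes. Subset 8 held 110 of 176 and 70 of 125 C1qa UMIs of the fibroblasts, at 617 and 877 CPM, while no other subset exceeded 12.3 CPM. All 9 members differed among the 9 subsets with enough cells (44.7% of all genes tested). Of the 36 pairs of these subsets, each C1q chain was a call in 8, compared with 9.64% of all tests. Without those mixed subsets, 6 members differed (37.7% of genes), C1qa (adjusted p = 0.461) and C1qb (0.152) did not pass, and C1qc was below the filter on low counts. The 6 were Cd55 (1.64e-18), C7 (1.53e-15), Serping1 (3.36e-12), C3 (4.57e-12), Cfb (5.69e-11) and C4b (6.22e-08). Of the 21 pairs of these 7 subsets, Cd55 was a call in 15, C3, C7 and Cfb in 13 each, C4b in 11 and Serping1 in 9, compared with 9.34% of all tests. The 7 subsets kept include subset 1 (518 cells), although the globin genes Hbb-bs, Hba-a1 and Hba-a2 of erythroid cells were among its leading genes, and no fit was made without it.

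Cd55 was concentrated in subset 2 (432 cells), led by Pla1a, Dpp4 and Sbsn, at 817 and 686 CPM. The next among the subsets kept was 3, led by Dner, Gpr39 and Gpnmb, at 109 and 107 CPM, which subset 2 exceeded by 2.78 ± 0.22 (log2, adjusted p = 2.15e-10). Subset 0 (655 cells), led by Fmod, Pax1 and Vegfd, held 8.09 and 12.2 CPM. C7 ran differently, at 136 and 116 CPM in subset 2, 834 and 826 in subset 1 (led by Hbb-bs, Kitl, Hba-a1, Hba-a2 and Myoc), 845 and 736 in subset 3, and 1131 and 884 in subset 7, led by Aqp1, Mab21l2 and Tfap2b. Subset 7 (111 cells) was thus highest in C7 by mean but was not separated from subset 1 (adjusted p = 0.459). It held little Serping1, at 490.3 and 309.8 CPM, which was lower than in subset 1 by 2.87 ± 0.20 (adjusted p = 7.05e-12), and little Cfb, at 43.6 and 11.3 CPM.

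Among the subsets kept, C3 ranged by mean from 209 and 397 CPM in subset 4, led by Cytl1, Lamc3 and Meox1, to 1922 and 2388 in subset 2 and 1897 and 3152 in subset 6, led by Ptn, Igfbp3 and Cxcl14. Subsets 2 and 6 did not differ (adjusted p = 0.698), and subset 6 exceeded subset 4 by 3.15 ± 0.29 (6.72e-09). C4b stood at 69.3 and 83.8 CPM in subset 2 and at 302 and 858 in subset 6, a difference of 2.82 ± 0.33 (1.76e-07), so subsets alike in C3 were unlike in C4b. Of the subsets kept, subset 3 was highest in Cfb in both aortas, at 356 and 413 CPM. Among the same subsets Serping1 was highest by mean in subset 1, at 2985 and 2941 CPM, but subset 6, at 2611 and 3008 CPM, was above it in aorta 2 and was not separated from it (adjusted p = 0.922). Among the partner genes, C2 differed between subsets too (4.92e-14), with means of 158 CPM in subset 1 and 11.1 in subset 2.

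**Figure D4:**
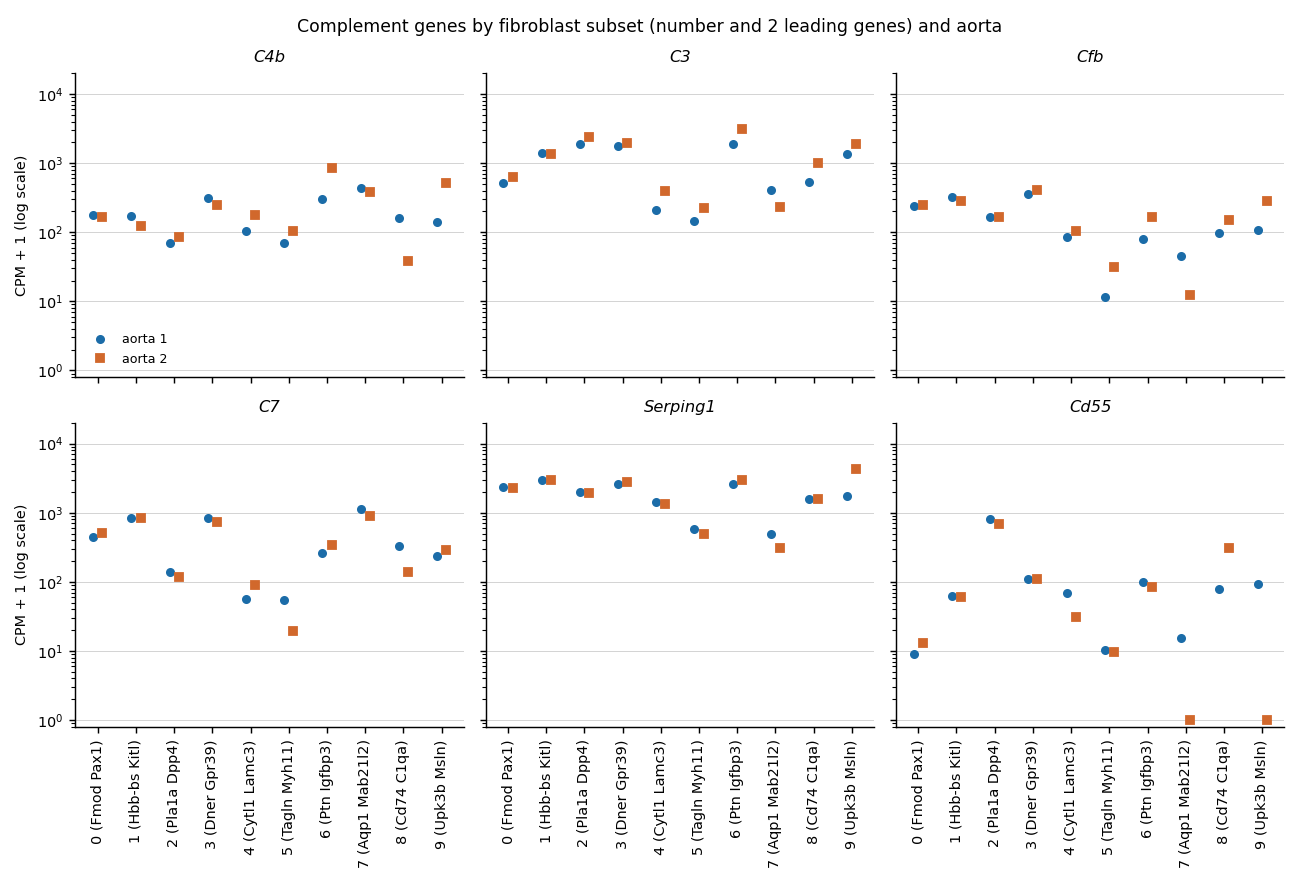
Level of C3, C4b, Cfb, C7, Serping1 and Cd55 in each fibroblast subset, as CPM + 1 on a log axis, with a circle for aorta 1 and a square for aorta 2 and the leading genes beside each subset's number. Cd55 peaks in subset 2, C7 is low in subsets 2, 4 and 5, and Serping1 is low in subsets 5 and 7.

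Mesothelial cells fell into 4 subsets, of which 3 had enough cells in each aorta for a test. C4b (adjusted p = 3.40e-09) and C3 (2.92e-06) differed among them, as did Cfb (0.0169), Cd55 (0.0436) and Serping1 (0.0494), together 5 members where 7.18% of genes differed. C7 and the C1q chains were below the filter on low counts. The last 3 calls were lost when doublets were kept, when UMI limits were changed and in DESeq2, which left 2, with 3.19 to 7.48% of genes differing under these settings. Subset 2, led by Cdkn1c and Igf1, held C4b at 1024 and 2058 CPM, subset 0, led by Sncg, Acta2, Myl9 and Tagln, at 280 and 425, and subset 1, led by Cst9 and Calcb, at 68.3 and 23.5. Acta2, Myl9 and Tagln are SMC genes, Csf1r of macrophages was also among the leading genes of subset 0, and no fit was made without that subset. The 3 subsets did not overlap in C4b, and each pair was a call, up to 4.79 ± 0.35 (log2) between subsets 2 and 1 (1.68e-09), compared with 3.73% of all tests. Subset 2 made up 32 of 274 mesothelial cells in aorta 1 and 52 of 158 in aorta 2, and the mesothelial level of C4b as a whole was 297 and 843 CPM.

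C3 followed the same order at a narrower range, 7126 and 7994 CPM in subset 2, 5138 and 6104 in subset 0 and 3148 and 3459 in subset 1. Subset 2 exceeded subset 1 by 1.20 ± 0.13 (adjusted p = 6.78e-07), the only pair called for C3. Subset 3, with 20 and 5 cells, was not tested. It was led by Saa3, Cxcl13 and Ccl2, which encode an acute-phase protein and chemokines, and held C3 at 10888 and 6992 CPM, Cfb at 1099.5 and 842 and Cd55 at 534 and 614. Its Cfb and Cd55 were above those of the other mesothelial subsets in both aortas, where the highest values were 171 and 94.0 CPM.

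Macrophages fell into 9 subsets, 8 of them tested. C4b (adjusted p = 4.80e-19), C3 (2.41e-15), Cfb (6.27e-12) and Serping1 (3.56e-09) differed, 4 members where 46.8% of genes did. C1qa (0.158), C1qb (0.289) and C1qc (0.0919) did not pass, and C7 and Cd55 were below the filter on low counts. The count was 8 with doublets kept, where 54.2% of genes differed, and 8 with no filter on low counts, where 25.7% of the larger number of genes tested did. Subset 5 (48 cells) carried Dcn and Tagln of fibroblasts and SMCs, and subset 7 (36 cells) Cytl1 and Pecam1. Without these, Serping1 was below the filter on low counts and was not tested, and C1qc passed (0.0329, 47.4% of genes). None of the 28 pairs of subsets was a call for any C1q chain, while 9.72% of all tests were calls (11.9% without the mixed subsets).

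C4b varied widely among macrophage subsets and was a call in 14 of the 28 pairs, compared with 15 for C3. Without the mixed subsets it was a call in 11 of 15 pairs and C3 in 8. Subset 2 (203 cells), led by Mmp12 and H2-M2, held 12.8 and 33.2 CPM, subset 0 (415 cells), led by Retnla and Mucl1, 702 and 870, subset 1 (395 cells), led by Fcrls and Ccl12, 569 and 552, and subset 3 (67 cells), led by Slpi, Alox15 and Prg4, 1386 and 1684. Subset 0 exceeded subset 2 by 5.00 ± 0.34 (log2, adjusted p = 2.48e-17) and subset 3 exceeded it by 6.31 ± 0.34 (2.52e-21). C1qb, by contrast, was 6549.7 and 7142 CPM in subset 2 and 4909 and 5616 in subset 3. The subset lowest in C4b was thus not low in C1qb. Subset 2 also had the highest H2-Ab1, an MHC class II gene, at a mean of 11884 CPM.

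Subset 3 held C3 at 119 and 71.2 CPM, above subset 0 by 3.79 ± 0.40 (adjusted p = 3.44e-11), and Cfb at 139.7 and 134 CPM. Subset 6 (46 cells), led by Marco and Spp1, was near it with C3 at 65.5 and 181 CPM and Cfb at 102 and 124. Subset 3 had Mrc1 at 6.43 and 0 CPM and Csf1r at 345 and 254 CPM, far below the macrophage sums given above, and Saa3 at 23698 and 16512 CPM, so it did not carry one of the defining markers. The chain mix varied little, with C1qa between 32.8% and 43.6% of C1q UMIs across the tested subsets, lowest in subset 3. Of the partner genes, Cfp had a mean of 1310 CPM in subset 3 and 40.6 in subset 2, and Fcna 1373 in subset 6 and 44.0 in subset 2.

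The genes most alike in pattern were taken by Pearson's r over 24 sums (12 types in 2 aortas) of log2(CPM + 1). They came from 7049 genes that reached a mean of 50 CPM in some type, with all genes of the complement list left out. These values describe the sums, which share libraries, depth and cell types, and carry no test. C1qa was closest to Fcrls (0.87) and C1qc to Pla2g2d (0.88), both macrophage genes here. C3 was closest to Fmod (0.90), C7 to Scara5 (0.90), Serping1 to Serpinh1 (0.94), Cfb to Rnase4 (0.88), C4b to Prg4 (0.83) and Cd55 to Tubb2b (0.82). Between members, the C1q chains ran together (0.79 to 0.89), Serping1 was 0.68 with both C3 and Cfb, and C1qa was 0.47 with C4b and -0.09 with C3.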

How the data were processed

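Thoracic aortas of 2 mice were profiled with the Chromium 3′ v3.1 chemistry, and both libraries form 1 group (n = 2 animals). The deposited values are raw UMI counts per gene and cell that the authors made with Cell Ranger 4.0.0 on mm10 with reporter sequences added (the labels also name Seurat 4.0). The deposited 8947 and 6263 cells were called cells with at least 500 UMIs, 47009780 and 30919996 UMIs in all.

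Cells with more than 200 genes, 1000 to 25000 UMIs and under 10% mitochondrial UMIs were kept (6744 and 4698, against 6278 and 4300 after filtering per the labels), and Scrublet doublets were removed (2.98% and 1.89%). Clustering in scanpy 1.11.5 (Python 3.11.15, leidenalg 0.10.2) used 2000 variable genes, 30 components, 15 neighbours and resolution 1 (0.5 for subsets), without the 51 complement genes, the reporters and mitochondrial genes, and gave 29 clusters. A name required 3 markers in at least 25% of cells, Csf1r and Mrc1 for macrophages, and no more markers of another class than of its own among the 10 leading genes. The last condition was set after cluster tables were seen; the earlier form (2 markers of another class) is an alternative.

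Raw UMIs were summed per aorta and type or subset and tested with edgeR 4.0.16 in R 4.3.3 (quasi-likelihood, TMM, filterByExpr, Benjamini-Hochberg over all genes tested). The standard error of a fold is its size over the square root of F. The script was tested on simulated counts. DESeq2 1.42.0, no gene filter, other cell filters, doublets kept, resolution 2 and the aorta as a block were alternatives. Same-numbered sums come from the same animal. Over 66 pairs of types their deviations correlated between -0.19 and 0.50 (median 0.084, 970 genes). Intervals and floors (3 UMIs) cover counting error only.

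The members and lists were chosen with earlier results of these data known. Named were the 9 members, called genes of the pathway list, genes from outside it among the 3 most correlated with each member, and the leading genes of clusters and subsets. Also named were markers of cell types, Gm16083 and H2-Ab1. From the pathway list, C4a, Hc, C8g, C8a, C8b, C9 and Mbl1 were named for their levels, although they were not tested. Clusters quoted within a type were chosen after their values were seen. The planned comparison of macrophages with dendritic cells had no dendritic type and was not made. Promoters of 5 of the 9 members were matched in the RefSeq table. As a guide to free RNA, the ratio of marker levels between types is given beside the values, and its part was not tested. Results for 1 other gene of the pathway list are not reported here, although it is included in the counts over that list.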

Additional observations from a re-analysis of the deposited data

How the results depend on the processing

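Cell types, the order of levels and the calls of C3, C7, Cfb and Serping1 between fibroblasts and SMCs rest on 2 aortas, so the spread between animals is poorly known. Levels under about 3 UMIs, in neutrophils and NK or ILC cells above all, are limited by depth. Of the results that answer a comparison, 144 values under an alternative stayed on their side of the limit or within their spread, 27 moved beyond their spread, 4 counts rose and 4 fell past the limit set for counts. The 144 include the shares of UMIs with 1 aorta left out, whose outcome was fixed beforehand. Each of 2 values always lies within their SD of the mean, so these shares say nothing about stability. Of values of single genes, 351 stayed, 23 moved beyond their spread, 11 became calls, 1 was no longer a call and 10 changed sign with both aortas. For a single gene in 1 aorta the spread also came from its own 2 values, so staying within it carries little. With the aorta as a replicate block the members differing among macrophage subsets numbered 5 in place of 4 (49.3% of all genes tested against 46.8%), and the block changed no other count of members. With 1 aorta alone there is no test, and 3 differences that were not calls changed sign there, which are not counted among the 10. C3 between endothelial cells and SMCs, 0.58 (log2) in the model, was -0.32 in aorta 2 and 1.40 in aorta 1. C1qc there, 0.19 in the model, was -0.19 in aorta 2 and 0.68 in aorta 1. Cfb between mesothelial cells and fibroblasts, -0.18 in the model, was 0.19 in aorta 1 and -0.37 in aorta 2.

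Where values changed, the cause was not tested, except that thinning sets how many UMIs a cell can show. With doublets kept, the members differing between endothelial cells and SMCs numbered 7 (15.1% of all genes called higher), those among mesothelial subsets 2 (4.55% of all genes) and those among macrophage subsets 8 (54.2%). The mesothelial count was also 2 with cells of 5000 to 25000 UMIs (5.93% of all genes), with no UMI limits (7.48%) and in DESeq2 (3.19%), and the macrophage count was 7 with naming by 2 markers of another class (53.2%) and 8 with no filter on low counts (25.7%). Naming by 2 markers and leaving out mixed subsets were chosen after seeing the data.

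With both aortas, signs turned for the C1q chains outside macrophages and for C3 in endothelial cells, none of them calls before. Between mesothelial cells and fibroblasts, C1qa, C1qb and C1qc stood at 1.16, 1.19 and 1.04 (log2) with doublets kept and at 0.46, 0.64 and 0.44 without mixed subsets. Between fibroblasts and SMCs they stood at -0.56, -0.52 and -0.49 without mixed subsets. C3 between endothelial cells and SMCs was -0.091 with cells of 5000 to 25000 UMIs.

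The macrophage share of UMIs was 95.4% for C1qa and 95.7% for C1qc with no UMI limits. With doublets kept the fibroblast share was 71.6% for Cfb, 95.4% for C7 and 77.6% for Serping1. The Serping1 share was 79.6% with cells of 5000 to 25000 UMIs, 81.6% with no UMI limits and 81.8% at resolution 2, and the Cd55 share was 76.9% with cells of 5000 to 25000 UMIs. Requiring 2 UMIs, or not thinning, gave detection of 96.5% and 99.6% for C1qa, 95.9% and 99.6% for C1qb, 89.0% and 99.4% for C1qc and 17% and 64.4% for C4b in macrophages. It gave 85.1% and 99.3% for C3 in mesothelial cells, 11.4% and 57.0% for Cd55 in lymphatic endothelial cells, and in fibroblasts 3.95% and 46.0% for Cfb, 10.7% and 49.5% for C7 and 55.5% and 94.3% for Serping1.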
